A study of Drosophila melanogaster with 6 samples.

Results

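The genes described here encode the translation initiation and elongation factors of the fly, the proteins that bring an mRNA and its first amino acid to the ribosome and then move the ribosome along the message. They were taken by name alone, as the genes of the table whose symbol begins with eIF, eEF, Ef1 or EF followed by a digit, and 38 of 17490 genes met this rule. mRNA was sequenced from 3 replicates of GFP+ myoblasts, the muscle precursors on the leg disc, sorted at 0 h after pupae formation (APF), and from 3 input replicates, for which cells of the entire leg disc were taken without sorting for GFP. Both groups came from discs of the genotype R32D05-lexA>lexAopGFP, in which a regulatory fragment active in myoblasts drives the foreign activator lexA and, through it, GFP, and cells of the discs were freed with collagenase and papain. The input holds the myoblasts as well, so a fold change sets sorted myoblasts against a mixture that includes them, and not against the other cell types alone. The labels do not say whether replicates came from separate dissections, so p-values measure the spread between these libraries, which may be in part technical. Values are RPKM, read numbers divided by gene length and by sequencing total, so that levels of different genes can be set side by side. In these bulk samples, less RNA of a gene per cell and fewer cells that express it cannot be told apart.

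Initiation begins when eIF2, carrying GTP and the initiator tRNA, joins the small ribosomal subunit together with eIF1A, eIF3 and eIF5, while eIF4E, eIF4G and the helicase eIF4A bind the capped end of the mRNA and open it. After the start codon is found, eIF2 leaves with GDP, and eIF2B exchanges that GDP for GTP, a step that stress kinases block. During elongation eEF1A delivers each aminoacyl-tRNA, eEF1B recharges eEF1A with GTP, eEF2 moves the ribosome by a codon, and eIF5A, named as an initiation factor, helps the ribosome through slow peptide bonds. Growing and dividing cells, such as the precursors on imaginal discs, are known for a high demand on this machinery.

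The myoblast and input libraries differed in cell type markers in the direction of their labels. All 7 myoblast markers examined (ct, Him, htl, Mef2, twi, vg and zfh1) were called higher in myoblasts, with a summed level of 483 to 591 RPKM in myoblast libraries and 80.1 to 112 RPKM in input libraries. The study names these 7 among the genes enriched in these same libraries, so their count is no independent check of the labels. The summed level of 9 disc epithelium markers was 242 to 276 RPKM in myoblasts and 2027 to 2756 RPKM in the input, with 7 called lower and 1 higher, and that of 5 tendon precursor markers was 1.35 to 1.48 RPKM in myoblasts and 68.9 to 77.3 RPKM in the input. Of the epithelium markers, ImpE2 alone had 1681 to 2196 RPKM in the input. The marker called higher was bib, with 147.1 to 180.5 RPKM in myoblasts, and shg was not called (log2 fold change 0.64). The smallest step between low RPKM values gave 64759747 to 84316388 reads behind each myoblast library and 41455153 to 67763260 behind each input library, the lowest total being that of input replicate 1. That lowest total is uncertain, because the reads inferred over the genes of that library sum to more, 45603767. Input replicate 1 stood apart from the other inputs. Its RPKM values summed to 963726, against 481720 and 589908 in input replicates 2 and 3, and its values correlated with theirs at 0.87 and 0.91 (Pearson, log2 values of 7533 genes), where the other pairs within a group lay between 0.95 and 0.99. It had 52.2 RPKM over 6 hemocyte markers, against 9.87 and 12.3 in input replicates 2 and 3. Most of that sum came from a single gene, He, with 38.8 RPKM, against 2.02 and 3.73 in input replicates 2 and 3. Of the other hemocyte markers, eater and NimC1 were also higher in input replicate 1, Pxn was lower, and srp and Hml were under 1 RPKM in every library. Over 5 neuron markers input replicate 1 had 28.2 RPKM, against 123 and 114. The results that rest on it are therefore given with and without it.

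None of the translation factor genes was called different between myoblasts and input. Of the 38 genes, 32 reached 1 RPKM or more in 3 or more libraries and were tested with limma on log2(RPKM + 1) within the fit of 7533 genes, where a gene is called if its Benjamini-Hochberg adjusted p is under 0.05 and it differs by over 1.5-fold. Their count of 0 called stands beside 20.4% of all tested genes (1534 of 7533), of which 416 were higher in myoblasts (5.52% of tested genes) and 1118 lower (14.8%). At an unadjusted p under 0.05 there were 5 of the 32, against 30.7% of all tested genes. The smallest adjusted p of the 32 was 0.0844 (limma, Benjamini-Hochberg), that of eIF3-S10. The median log2 fold change was 0.27, against 0.01 over all tested genes, with 25 genes above 0 and 7 below, and it ranged from -0.27 for eIF5 to 0.64 for EF2. For 18 of the 32 genes the 95% interval of the fold change lay within 2-fold in both directions, as it did for 39.6% of all tested genes. For the other 14 genes a difference of 2-fold or more in at least one direction remains inside the interval. In 10 of the 32 genes all myoblast values exceeded all input values, as in 16.4% of all tested genes, and in 1, eIF5, all were below, as in 21.5%. In total 11 showed no overlap, beside 37.8% of all tested genes.

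**Figure D1:**
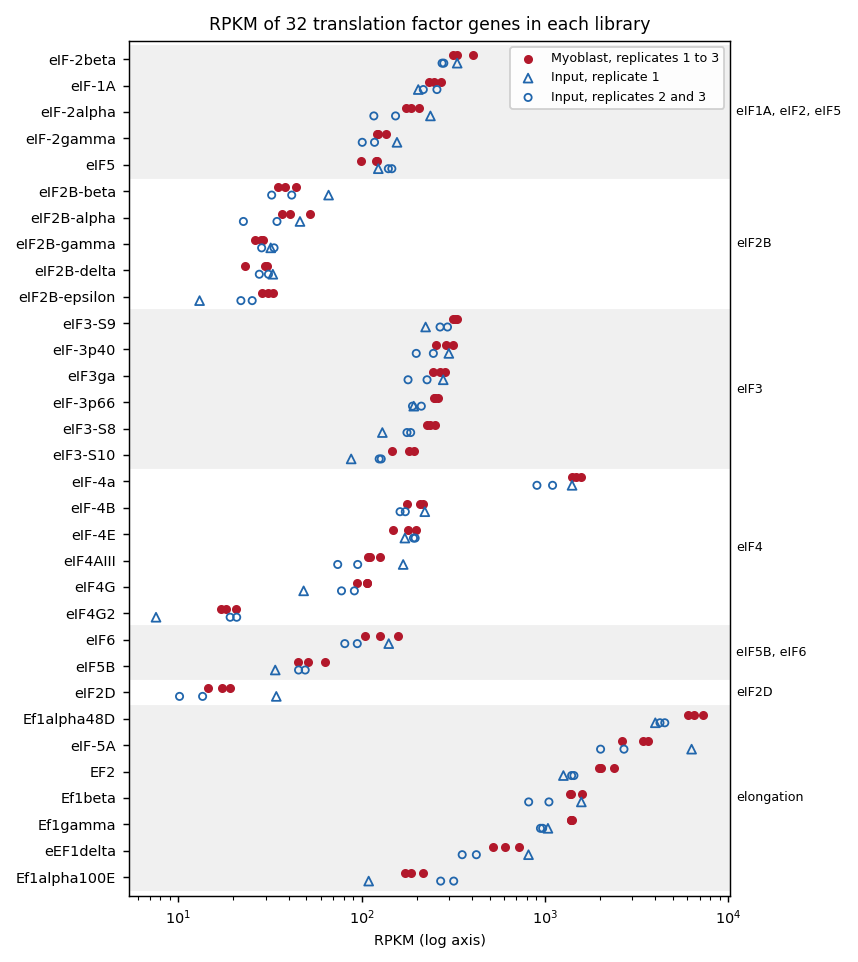
RPKM (log axis) of the 32 tested translation factor genes in each library, grouped by role, with filled circles for the 3 myoblast libraries, open triangles for input replicate 1 and open circles for input replicates 2 and 3. Levels span from about 17.3 RPKM on average for eIF4G2 to 5441 RPKM for Ef1alpha48D, and within a gene the myoblast and input symbols lie close together, with the triangle often the outermost.

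Several of these genes compared differently with and without input replicate 1. Among the 32 genes its log2 ratio to the mean of input replicates 2 and 3 was lower the longer the summed exons of the gene (Pearson r = -0.78, Spearman rho = -0.81, across genes of the same 3 libraries, which are not independent replicates), and over the 7362 tested genes with a known length r was -0.54. The 7 genes with under 1200 bases of exon had a median log2 ratio of 0.67, all of them above 0, and the 9 genes with over 2600 bases had a median of -0.48, all of them below 0. Myoblast replicate 1 had a weaker trend in the same direction against the mean of myoblast replicates 2 and 3. Pearson r was -0.38 among the 32 genes and -0.31 over the 7362 genes. The part that length plays in the fold changes was not tested beyond a fit after removal, library by library, of the trend on exon length. Without input replicate 1 the median log2 fold change of the 32 genes was 0.37, the sign changed for 3 of them, and 3 were called (limma, Benjamini-Hochberg), namely Ef1beta and eEF1delta as higher and Ef1alpha100E as lower in myoblasts, beside 31.1% of all tested genes (11.6% higher and 19.5% lower). A further 5 (EF2, Ef1gamma, eIF-4a, eIF3-S8 and eIF-2alpha, all higher) then had an adjusted p under 0.05 with a fold change under 1.5, which made 8 of 32 at any fold change, beside 34.1% of all tested genes. Without input replicate 2 the log2 fold changes of Ef1beta, eEF1delta and Ef1alpha100E were 0.17, 0.05 and 0.03. Without input replicate 3 they were 0.35, 0.18 and 0.15, and neither fit called any of the 32 genes. With the length trend removed 2 were called, Ef1alpha48D and EF2, both higher, beside 27.1% of all tested genes, and 6 more (Ef1beta, Ef1gamma, eIF-3p66, eIF3-S8, eIF3-S10 and eIF4G, all higher) had an adjusted p under 0.05 with a smaller fold change, 8 of 32 in all beside 30.2%. The removal of the trend was chosen after the data were seen.

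**Figure D2:**
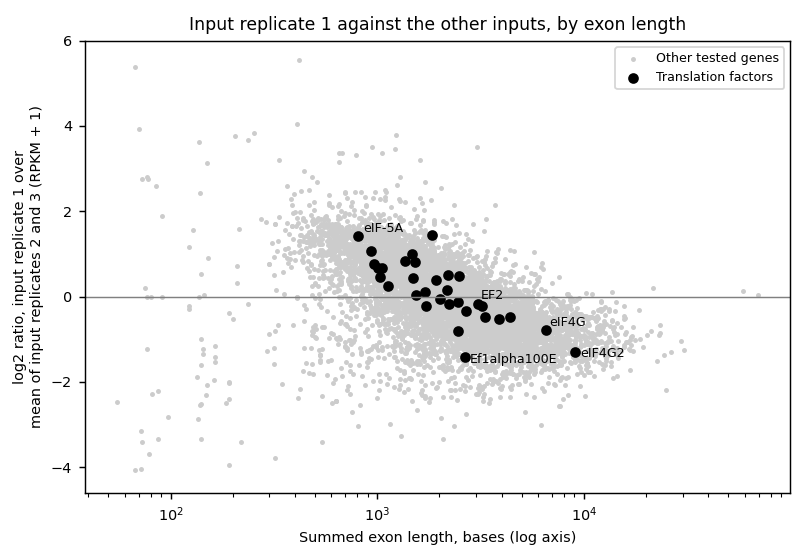
The log2 ratio of input replicate 1 to the mean of input replicates 2 and 3 (vertical axis, RPKM + 1) against summed exon length in bases (log axis), with the 32 translation factor genes in black and other tested genes in gray. The black points descend to the right, with eIF-5A high at the short end and eIF4G2 low at the long end.

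The elongation factors were the most abundant of the genes, and none of the 7 was called or had an interval within 2-fold. Ef1alpha48D (FBgn0000556, now eEF1alpha1, chromosome 2R of dm6, 11891135 to 11895762), the main gene for the tRNA carrier eEF1A, had 6020, 6546 and 7306 RPKM in myoblasts, against 4009, 4515 and 4250 RPKM in the input. Every myoblast library was above every input library, and by mean RPKM the gene ranked 4th of all 17490 genes in myoblasts and 22nd in the input. The input rank includes input replicate 1, the library with the largest sum of RPKM, and a rank without it was not taken. The fold change of Ef1alpha48D was 1.55, with a 95% interval from 0.914 to 2.64, and did not pass the test (limma, Benjamini-Hochberg adjusted p = 0.246). EF2 (FBgn0000559, now eEF2, chromosome 2L, 21677913 to 21682164), the translocase, had 1974, 2037 and 2386 RPKM in myoblasts, against 1263, 1442 and 1400 RPKM in the input. Again the groups did not overlap, and the fold change was 1.55 with an interval from 1.05 to 2.31 (adjusted p = 0.121 from limma). Without input replicate 1 the log2 fold changes of Ef1alpha48D and EF2 were 0.59 and 0.58, close to the 0.63 and 0.64 of all 6 libraries.

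The 3 subunit genes of eEF1B, the exchange factor of eEF1A, are of unlike length. Ef1gamma (FBgn0029176, chromosome 3R, 29220172 to 29222109), with 1695 bases of exon, had 1392, 1395 and 1415 RPKM in myoblasts, against 1040, 947 and 973 RPKM in the input. The 3 myoblast values were nearly equal and all above the inputs, and the fold change of 1.42, with an interval from just above 1 to 2.01, did not pass (adjusted p = 0.161, limma). Ef1beta (FBgn0028737, chromosome 2R, 16868222 to 16869280), with 960 bases, had 1371, 1391 and 1591 RPKM in myoblasts, against 1582, 817 and 1053 RPKM in the input. The third subunit gene, eEF1delta (FBgn0032198, chromosome 2L, 10232507 to 10234450), with 928 bases, had 603, 519 and 721 RPKM in myoblasts, against 815, 354 and 423 RPKM in the input. In both short genes input replicate 1 alone lay among or above the myoblast libraries, and without it their log2 fold changes were 0.64 and 0.65 (adjusted p = 0.0287 and 0.0259, limma), where all 6 libraries gave 0.39 and 0.29 (adjusted p = 0.450 and 0.621). Within a library eEF1delta was the lowest of the 3 subunits in all 6 libraries, and the highest subunit exceeded it by 1.94-fold to 2.69-fold.

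A wide disagreement among inputs was seen in eIF-5A (FBgn0034967, now eEF5, chromosome 2R, 24057798 to 24059483), a gene of 807 bases of exon. It had 3443, 2653 and 3642 RPKM in myoblasts, against 6323, 2015 and 2703 RPKM in the input. The myoblast values lay inside the range of the inputs, and the interval of the fold change, 0.474 to 2.06, leaves a change of 2-fold down or up undecided (adjusted p = 0.987, limma). The log2 fold change was -0.02 with all libraries and 0.46 without input replicate 1 (adjusted p = 0.175, limma). The second eEF1A gene, Ef1alpha100E (FBgn0000557, now eEF1alpha2, chromosome 3R, 31738468 to 31743306), was also divided by input replicate 1, in the other direction. It had 172, 217 and 187 RPKM in myoblasts, against 109, 270 and 318 RPKM in the input. All 3 myoblast libraries lay below input replicates 2 and 3 and above input replicate 1, and the log2 fold change was -0.15 with all libraries (adjusted p = 0.849, limma) and -0.62 without input replicate 1 (adjusted p = 0.0159). The log2 fold change was 0.03 without input replicate 2 and 0.15 without input replicate 3.

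A ratio of 2 paralogs within a library does not depend on how libraries are scaled, and 2 such ratios were compared. Ef1alpha100E amounted to 2.86%, 3.31% and 2.55% of the RPKM of Ef1alpha48D in myoblast replicates 1, 2 and 3, and to 2.73%, 5.99% and 7.49% in input replicates 1, 2 and 3. The ratio was low and even in myoblasts, while input replicate 1 matched the myoblasts and the other inputs were higher, so the groups overlapped (difference of mean log2 ratios -0.78, two-sided exact permutation test over 20 arrangements, p = 0.3, where 0.1 is the smallest possible). The difference was -1.21 without input replicate 1 and -0.48 without input replicate 3. The 2 genes have exons of similar summed length, 2656 and 2464 bases, and their coding sequences are alike, so the counting may have split reads between them. For the other pair with both genes expressed, eIF4G2 amounted to 18.0%, 19.4% and 16.9% of eIF4G in myoblasts, and to 15.7%, 22.8% and 24.7% in the input (difference -0.19, exact permutation p = 0.4 over 20 arrangements, with 0.1 the smallest possible). It was -0.39 without input replicate 1 and -0.06 without input replicate 3. The paralogs eIF3d2, eIF3f2, eIF3g2 and eIF4H2, listed as CG4810, CG8335, eIF3gb and CG1340, were at 0 in every library, so no ratio was formed.

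eIF3, the largest initiation factor, is a scaffold on the small ribosomal subunit, and 7 of its subunit genes carried an eIF3 symbol in the table. Of these 6 were tested and none was called. All 6 had a log2 fold change above 0 (0.22 to 0.62, median 0.34), and in 4 all myoblast values exceeded all input values, as they did in 16.4% of all tested genes. The highest was that of eIF3-S10 (FBgn0037249, now eIF3a, chromosome 3R, 4429798 to 4433895), the subunit that holds the complex together, with 147, 183 and 193 RPKM in myoblasts, against 87.8, 128 and 125 RPKM in the input. Every myoblast library was above every input library, and the fold change was 1.54 with an interval from 1.09 to 2.18 (adjusted p = 0.0844, limma). Its log2 fold change was 0.62 with all libraries and 0.45 without input replicate 1 (adjusted p = 0.0512, limma). The core subunit eIF3-S8 (now eIF3c) had 226, 237 and 251 RPKM in myoblasts, against 130, 185 and 177 RPKM in the input (adjusted p = 0.0971, limma), and eIF3-S9 (now eIF3b), the most abundant of the 6, had 324, 332 and 317 RPKM in myoblasts, against 224, 294 and 268 RPKM in the input. These long genes were lowest in input replicate 1. eIF-3p66 (now eIF3d1), a subunit that can itself bind the cap of some mRNAs in human cells, had 253, 263 and 247 RPKM in myoblasts, against 193, 190 and 212 RPKM in the input, without overlap (log2 fold change 0.36, adjusted p = 0.194, limma). eIF3ga (now eIF3g1) overlapped between the groups, with a log2 fold change of 0.24. The lowest log2 fold change was that of eIF-3p40 (now eIF3h), with 317, 288 and 254 RPKM in myoblasts, against 299, 199 and 247 RPKM in the input, where input replicate 1 was the highest input. Exons of eIF-3p40, like those of several of these genes, overlap a neighbor and share 252 bases with senju on the opposite strand, which had at most 10.3 RPKM.

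A further 7 expressed subunit genes of eIF3 stand in the table under other symbols and were added for this complex by their current names (Trip1, Int6, Adam, Tango7, CG10306, CG5642 and CG9769). None of them was called with all libraries, and without input replicate 1 Adam (log2 fold change 0.59, adjusted p = 0.0266) and CG9769 (0.60, adjusted p = 0.0467) were called higher (limma). Without input replicate 1, 11.6% of all tested genes were called higher. Together the 13 expressed subunit genes had log2 fold changes from 0.07 to 0.62, all above 0, with a median of 0.34 and 7 whose groups did not overlap, all higher in myoblasts, beside 16.4% of all tested genes, and without input replicate 1 all 13 lay between 0.21 and 0.60. Adam (eIF3j), a loosely bound subunit, was the lowest in all 6 libraries, with 96.9, 91.1 and 124 RPKM in myoblasts, against 84.2, 65.1 and 71.7 RPKM in the input. The ratio of the highest to the lowest subunit was 4.32, 3.98 and 3.39 in myoblast replicates 1, 2 and 3, and 6.67, 4.52 and 4.90 in input replicates 1, 2 and 3, so the subunits were least even in input replicate 1.

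**Figure D3:**
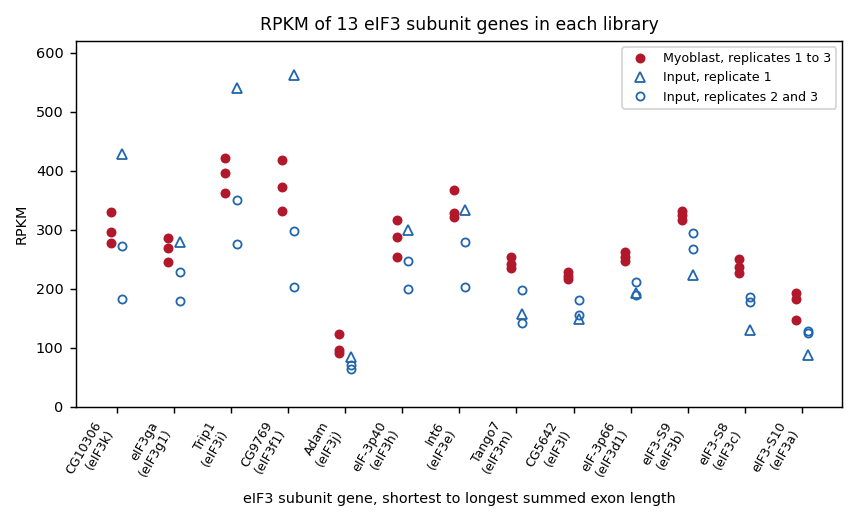
RPKM of the 13 expressed eIF3 subunit genes in each library, ordered from the shortest to the longest summed exon length, with filled circles for myoblasts, open triangles for input replicate 1 and open circles for input replicates 2 and 3. The triangle is the highest input for short subunits such as CG9769 (561 RPKM) and the lowest for the long subunit eIF3-S10 (87.8 RPKM), while the myoblast circles stay close together.

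In the eIF2 group none of 5 genes was called and all 5 intervals lay within 2-fold. The tRNA-carrying complex eIF2 was represented by 3 subunits at unlike levels. eIF-2beta (FBgn0004926, chromosome 3L, 12525093 to 12526731) had 332, 314 and 406 RPKM in myoblasts, against 333, 275 and 281 RPKM in the input, the highest mean of the group, with a log2 fold change of 0.24 with all libraries and 0.32 without input replicate 1. eIF-2alpha, the subunit that stress kinases phosphorylate, had 176, 186 and 205 RPKM in myoblasts, against 238, 117 and 153 RPKM in the input, and its log2 fold change was 0.22 with all libraries and 0.49 without input replicate 1 (adjusted p = 0.0442, limma). eIF-2gamma, which binds GTP and the tRNA, had 136, 122 and 123 RPKM in myoblasts, against 156, 101 and 118 RPKM in the input. In all 6 libraries the beta subunit was the highest and the gamma subunit the lowest of the 3. The exons of eIF-2gamma share 352 bases with Su(var)3-9 on the same strand, which had at most 16.9 RPKM. How reads there were counted is not stated. eIF5 (FBgn0030719, chromosome X, 15987008 to 15991974), which makes eIF2 hydrolyse its GTP, was the gene with the most negative value of all 32. It had 121, 98.9 and 120 RPKM in myoblasts, against 123, 146 and 140 RPKM in the input. The groups did not overlap, although the gap between 121 and 123 RPKM was smaller than the spread in either, and the log2 fold change of -0.27 did not pass (adjusted p = 0.366, limma). A gene of the annotation used for coordinates, CG46312, shares 80.8% of the exon bases of eIF5 on the same strand. No value for CG46312 was found among the deposited genes.

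eIF2B, which reloads eIF2 with GTP, was expressed at a lower level than the complex it serves. Its 5 subunits averaged between 25.5 and 42.9 RPKM over the 6 libraries, where the eIF2 subunits averaged 126 to 323 RPKM, and none was called. The catalytic subunit eIF2B-epsilon (FBgn0023512, chromosome X, 1920166 to 1922874) had 31.0, 28.5 and 32.9 RPKM in myoblasts, against 13.1, 22.0 and 25.3 RPKM in the input. It was the only one of the 5 without overlap, and its fold change of 1.55 (interval 1.02 to 2.37, adjusted p = 0.144, limma) was carried in part by input replicate 1, since the log2 fold change was 0.64 with it and 0.37 without it. The regulatory subunit eIF2B-beta had 38.4, 35.0 and 44.0 RPKM in myoblasts, against 66.1, 32.3 and 41.6 RPKM in the input, the lowest log2 fold change of the complex at -0.19, which turned to 0.08 without input replicate 1. The other 3 subunits, eIF2B-alpha, eIF2B-gamma and eIF2B-delta, overlapped between the groups, with log2 fold changes of 0.36, -0.17 and -0.14. The ratio of the highest to the lowest subunit was 1.56, 1.30 and 2.27 in myoblasts, and 5.06, 1.52 and 1.64 in input replicates 1, 2 and 3, so the subunits were least even in input replicate 1. Exons of eIF2B-epsilon share 153 bases with mip130 on the opposite strand, and counting by strand is not stated. mip130 itself had 22.8, 25.0 and 29.7 RPKM in myoblasts, against 9.18, 19.3 and 15.9 RPKM in the input, and its part in the value of eIF2B-epsilon was not tested.

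Of 11 genes with an eIF4 symbol, 6 were tested and none was called. The RNA helicase eIF-4a (FBgn0001942, now eIF4A, chromosome 2L, 5981764 to 5985909) was by far the most abundant, with 1571, 1410 and 1472 RPKM in myoblasts, against 1409, 906 and 1102 RPKM in the input. The groups did not overlap but nearly touched, with 1410 RPKM as the lowest myoblast value and 1409 RPKM as the highest input value (log2 fold change 0.40, adjusted p = 0.349, limma). The cap-binding protein gene eIF-4E (now eIF4E1) had 198, 180 and 148 RPKM in myoblasts, against 172, 192 and 196 RPKM in the input, and at -0.10 it was lowest of the group in log2 fold change, and the helicase partner eIF-4B had 210, 178 and 216 RPKM in myoblasts, against 221, 173 and 162 RPKM in the input. The scaffold eIF4G (FBgn0023213, chromosome 4, 915297 to 930715), with 6565 bases of exon, had 94.9, 107 and 108 RPKM in myoblasts, against 48.3, 91.4 and 77.8 RPKM in the input. It had the highest log2 fold change of the group, 0.55 (adjusted p = 0.185, limma), which was 0.29 without input replicate 1. Its relative eIF4G2 (FBgn0260634, chromosome 3R, 23808285 to 23819237), with 9097 bases, had 17.1, 20.8 and 18.2 RPKM in myoblasts, against 7.56, 20.8 and 19.2 RPKM in the input, and its log2 fold change of 0.33 turned to -0.10 without input replicate 1. Its exons share 779 bases with CG33111 on the same strand. eIF4AIII, related in sequence to eIF4A but known as a part of the exon junction complex, had 126, 111 and 109 RPKM in myoblasts, against 169, 74.1 and 95.3 RPKM in the input.

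Of the genes with an eIF4E symbol, eIF-4E alone was expressed at a level that could be tested. eIF4E-3, eIF4E-4, eIF4E-5, eIF4E-6 and eIF4E-7 were all below the level for testing, with a highest value of 1.07 RPKM, that of eIF4E-6 in myoblast replicate 1, where eIF-4E had 198 RPKM. eIF4E-4 was listed at 0 in all 6 libraries, as was eIF3gb, the second gene for eIF3g. The related cap-binding gene 4EHP, known in flies as a repressor that takes the place of eIF4E on some mRNAs, had 11.3, 9.67 and 10.2 RPKM in myoblasts, against 6.61, 14.9 and 10.6 RPKM in the input. The RPKM of the eIF4E genes below the level for testing correspond to few reads, from 23 to 62 in myoblast replicate 1 for the 3 genes above 0 there. Among the 32 tested translation factor genes the lowest number of reads in any library was 1268, that of eIF2D in input replicate 3.

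The factors that act on ribosomal subunits, eIF6, which keeps large subunits apart from small ones, and eIF5B, the GTPase that joins them, were not called. eIF6 had 158, 127 and 104 RPKM in myoblasts, against 141, 81.0 and 94.8 RPKM in the input. eIF5B had 44.8, 50.8 and 63.1 RPKM in myoblasts, against 33.8, 49.3 and 45.3 RPKM in the input. Both overlapped between groups, with log2 fold changes of 0.31 for eIF6 and 0.30 for eIF5B, which were 0.54 and 0.15 without input replicate 1. eIF-1A, which scans with the small subunit, had 271, 249 and 232 RPKM in myoblasts, against 204, 217 and 258 RPKM in the input. eIF2D, a factor that can bind tRNA to the ribosome without eIF2, had 14.6, 17.4 and 19.1 RPKM in myoblasts, against 34.3, 13.6 and 10.2 RPKM in the input, again with input replicate 1 at the far end. The log2 fold change of eIF2D was 0.002 with all libraries and 0.49 without input replicate 1 (adjusted p = 0.0997, limma).

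**Figure D4:**
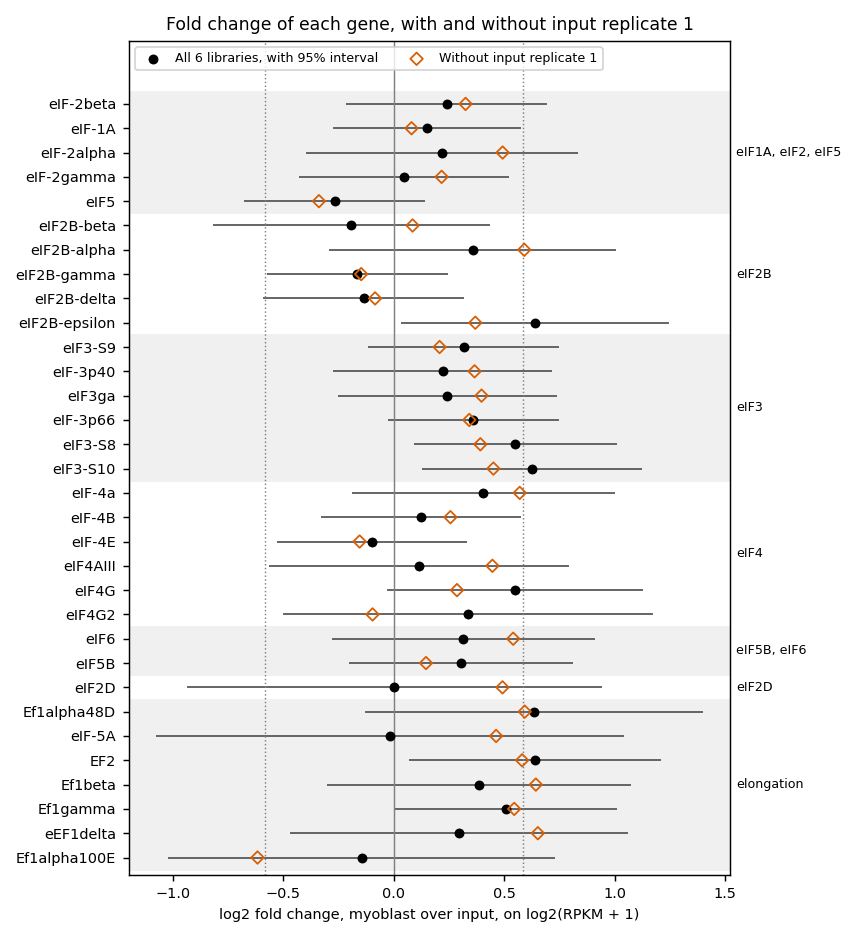
Log2 fold change of myoblasts over input for the 32 tested genes, grouped by role, as filled circles with 95% intervals from the fit of all 6 libraries and open diamonds from the fit without input replicate 1. Dotted lines mark a fold change of 1.5 in each direction. No interval lies wholly beyond a dotted line, and the diamond of Ef1alpha100E is the only one beyond the lower line, at -0.62.

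As a share of all RPKM in a library, the 38 genes together made up 3.01%, 3.35% and 3.43% in myoblasts, and 2.06%, 2.93% and 2.59% in the input. The groups did not overlap in this share, and most of each was due to elongation factors, with 2.24%, 2.52% and 2.65% in myoblasts, and 1.57%, 2.15% and 1.89% in the input. The share of the eIF3 genes named as such was 0.230%, 0.265% and 0.238% in myoblasts, and 0.126%, 0.244% and 0.213% in the input, which overlapped. Such shares depend on the other genes of the library.

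Of the genes whose current symbol begins with eIF or eEF but whose symbol in the table does not, 6 lay outside the pathway list that follows. Of these 6, 4 were tested and none was called with all libraries. CG9769, described with eIF3 above, is among the 4. CG17737 (eIF1), which guards the choice of start codon, had 913, 696 and 769 RPKM in myoblasts, against 1568, 531 and 753 RPKM in the input. CG7414 (eIF2A) had 158, 168 and 176 RPKM in myoblasts, against 187, 114 and 117 RPKM in the input, and without input replicate 1 its log2 fold change was 0.53 (adjusted p = 0.0118, limma), under the limit of 1.5-fold. EfSec (eEFSec) had 4.21, 3.60 and 6.27 RPKM in myoblasts, against 5.67, 5.79 and 3.32 RPKM in the input. In CG17737 and CG7414 input replicate 1 was the highest of the 6 libraries, and all 3 genes overlapped between the groups.

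Other genes of the translation pathway were compared in the same fit. They came from a list of initiation factors under other symbols, regulators, release factors, kinases, modifying enzymes and mitochondrial factors. The list includes the eIF3 subunit genes Trip1, Int6, Adam, Tango7, CG10306 and CG5642 described above, so it is not a separate set. Of 47 genes found among the deposited rows, 45 were tested and 1 was called, beside 20.4% of all tested genes, and their median log2 fold change was 0.24. The called gene was crc (FBgn0000370, chromosome 2L, 21310866 to 21319527), the fly ATF4, a transcription factor whose own mRNA is translated more when eIF2 is phosphorylated. It had 198, 173 and 160 RPKM in myoblasts, against 325, 292 and 301 RPKM in the input. The groups were well apart, and the log2 fold change was -0.79 (adjusted p = 0.0156, limma), but the adjusted p missed the threshold without any 1 of the myoblast replicates or input replicate 3 (0.0510 to 0.102) and after all libraries were scaled to an equal sum (0.0605). The log2 fold change stayed between -0.72 and -0.87 in these 5 fits. Without input replicate 1, 8 of the 45 genes were called, crc among them, beside 31.1% of all tested genes. Thor, the 4E-BP that binds eIF4E and holds it off eIF4G, was low in all libraries, with 2.09, 3.38 and 3.01 RPKM in myoblasts, against 5.14, 6.66 and 5.59 RPKM in the input. Its groups did not overlap, and the log2 fold change was -0.84 with all libraries, which did not pass (adjusted p = 0.0662, limma), and -0.91 without input replicate 1, which did (adjusted p = 0.0234). pAbp, the poly(A) binding protein that contacts eIF4G, had 1296, 1262 and 1207 RPKM in myoblasts, against 1093, 1251 and 1126 RPKM in the input, a level near that of eIF-4a. larp, a binder of the mRNAs of the translation machinery, had 29.6, 33.1 and 29.2 RPKM in myoblasts, against 13.5, 21.8 and 19.2 RPKM in the input (log2 fold change 0.74, adjusted p = 0.0521, limma), and without input replicate 1 the log2 fold change was 0.56 (adjusted p = 0.0236), under the limit of 1.5-fold. EfTuM, the mitochondrial counterpart of eEF1A, had 102, 106 and 110 RPKM in myoblasts, against 100, 56.4 and 68.1 RPKM in the input, where input replicate 1 was just below the myoblasts. Its log2 fold change was 0.54 with all libraries (adjusted p = 0.161, limma) and 0.77 without input replicate 1 (adjusted p = 0.0034), where it was called.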

How the data were processed

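mRNA of 3 myoblast and 3 input libraries, primed with oligo(dT), was sequenced single-end. The deposited RPKM values were made by the authors. The submitters' processing notes name cutadapt, HISAT2 2.1.0, HTSeq 0.11.2, DESeq2 1.22.2 and the dm6 build, and whether counting used strand is not given in the sources used here. The raw counts were not used here, so DESeq2 was not run. Reads per library were inferred from the steps between low RPKM values, of which 97.3% to 98.6% of those under 100 reads came out whole within 0.05 reads. In input replicate 1 the reads so inferred summed over genes to 45603767, above its total of 41455153, so that library's total is uncertain.

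Genes with at least 1 RPKM in at least 3 libraries were tested on log2(RPKM + 1) with limma 3.58.1 in R 4.3.3, with a mean-variance trend and Benjamini-Hochberg adjustment over 7533 genes. A fold change on this scale is understated for low genes. Paralog ratios were compared by exact permutation. The fit was tested on simulated data. Alternatives were another pseudocount (0.1), no filter, a mean above 5 RPKM, 3 other scalings, no trend, array weights, a replicate block, each library left out and, added after the data were seen, removal of each library's trend on exon length and a call with no limit on the fold change. Each of the 38 genes chosen by symbol was named or counted. Members and lists were chosen with earlier results of these data known. Exon lengths and coordinates (dm6) came from Ensembl release 115, in which 17216 of 17490 genes were matched, and 82 genes carried no symbol.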

Additional observations from a re-analysis of the deposited data

How the results depend on the processing

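Of 17 alternatives, 14 called none of the 32 genes. A replicate block called 1 (eIF3-S10, adjusted p = 0.0452, limma), the removed length trend called 2, and leaving out 1 library called 0 to 3, the 3 without input replicate 1. The median log2 fold change of the 32 genes lay between 0.11 (without input replicate 2) and 0.37 when 1 library was left out. Same-numbered libraries deviated together at 0.34, 0.26 and 0.0069 (Pearson r). Myoblast replicate 1 with input replicate 2 gave -0.33, and myoblast replicate 2 with input replicate 1 gave -0.29. The highest value of myoblast replicate 3 was 0.042, with input replicate 2. The methods state no pairing, so the main fit had no block. Whether same-numbered libraries were paired cannot be settled from these values. With the block 1668 genes in all were called, against 1534. The count over all genes was 894 with no filter and 920 with a mean above 5 RPKM. It was 951, 918 and 903 without myoblast replicate 1, 2 or 3, and 2342 without input replicate 1. Calls higher in myoblasts made up 27.1% of all calls, but 16.3% with libraries rescaled to the same sum and 50.4% with quantile normalization, which moved the median of all genes to 0.16 and that of the 32 genes to 0.31. The 1 related gene called became 0 with the same sum, 3 with quantile normalization, 2 with no trend, 3 with array weights, 2 with the block, 3 with the length trend removed and 0 to 8 when 1 library was left out. The cause of these shifts was not tested. With 3 libraries a group, fold changes of up to 2.64 remained inside the intervals of these genes.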

Other observations

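The ribosomal protein genes, whose products the factors act on, were measured in the same libraries. Of 93 cytoplasmic ribosomal protein genes 86 were tested, 0 were called higher and 1 lower (limma, Benjamini-Hochberg), beside 5.52% and 14.8% of all tested genes, with a median log2 fold change of 0.16 and 78 above 0. Without input replicate 1 the median was 0.61, with 23 called higher and 1 lower, beside 11.6% and 19.5% of all tested genes. Together they made up 48.5%, 45.0% and 45.9% of the RPKM in myoblasts, and 51.3%, 32.7% and 38.7% in input replicates 1, 2 and 3, so input replicate 1 held the highest share of all 6 libraries. These genes have a median of 927 bases of exon, against 1967 for the translation factors tested. Of 73 mitochondrial ribosomal protein genes 72 were tested and 2 were called higher and 0 lower, with a median of 0.19, and without input replicate 1 the median was 0.47 with 15 called higher and 0 lower, beside the same shares of all tested genes.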
